A study of Homo sapiens with 33 samples.

Results

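Kinesins, dynein and dynactin, the motor proteins of microtubules and the complex that ties dynein to its cargo, were followed at the RNA level in cells carrying the D262V substitution in hnRNPA1, an RNA-binding protein that regulates splicing. The gene set and its lists were chosen with earlier results of these data known. Its genes were taken by symbol, a rule that uses no measured value, and came to 59 of the 44786 gene rows in the deposited tables. They comprised 39 kinesin genes, 13 genes for cytoplasmic dynein chains, 6 dynactin genes, and KIF1BP, which matched by symbol but encodes a kinesin-binding protein and not a kinesin. SH-SY5Y neuroblastoma cells were sampled undifferentiated, as WT or homozygous mutant, and differentiated, as WT, homozygous or heterozygous mutant. Differentiated cells were harvested on day 18 after media with 10 µM retinoic acid, the last of which also held 50 ng/mL BDNF, dibutyryl cyclic AMP and added KCl. Flp-In T-REx 293 cells, a kidney-derived line with an inducible transgene, expressed WT or D262V hnRNPA1 after 1 µg/mL tetracycline for 72 hr. Each of these groups had 3 poly(A) RNA-seq libraries, and hnRNPA1 irCLIP, which maps protein contacts on RNA, was given as 1 pooled list for WT and for D262V in each line. The labels do not state how the mutant SH-SY5Y cells were made, whether each genotype is 1 clone, or whether replicates were separate cultures. The p-values therefore measure the spread between these libraries, which may be technical.

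Kinesins use ATP to walk mostly toward the plus end of microtubules, and cytoplasmic dynein walks toward the minus end. In neurons kinesin-1 and kinesin-3 carry vesicles and organelles down the axon, and dynein with dynactin brings cargo back to the cell body. Dynein is built from a heavy chain motor, intermediate chains that bind dynactin, light intermediate chains and light chains, and dynactin holds it through the large subunit DCTN1. Other kinesins build the mitotic spindle in dividing cells. Mutations in KIF5A and DCTN1 are known from motor neuron disease, and D262V in hnRNPA1 from amyotrophic lateral sclerosis and multisystem proteinopathy.

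Expression was read in 2 ways. Gene counts are reads assigned to a gene by the authors. Junction reads are the reads over the spliced junctions that the authors' splicing tables list for a gene, summed per library. Both are given as counts per 1e+06 reads of the same kind (CPM). A gene was called changed at a Benjamini-Hochberg adjusted p under 0.05 in edgeR's quasi-likelihood test over all genes. Reads assigned to genes per library ranged over 3.62 to 6.85 M (undifferentiated SH-SY5Y), 8.72 to 15.3 M (differentiated) and 1.99 to 2.91 M (Flp-In). Of uniquely aligned reads, 92.2% to 94.6% were assigned to no gene feature. A motor gene's gene count was often lower than the reads over its own most-read junction: this was so for 31 of 33 motor genes in the differentiated heterozygous comparison, with a median gene count of 6.62% of that junction. In differentiated WT libraries DCTN1 had a mean of 111 gene reads and DCTN1-AS1, annotated on the opposite strand, had 8039, while KIF2A had 97 and DIMT1, opposite to it, had 3408. The strand setting of the counting is not stated, and whether counts were made on the strand opposite to the transcripts was not tested. A gene count made that way would not measure the named gene, and every gene count result below carries that limit. Gene counts and junction reads are therefore given separately. Junctions listed differ between the tables, so a junction CPM compares groups within 1 table only. Summed noradrenergic neuroblastoma markers stood at 354 to 386 CPM in undifferentiated and 615 to 1018 CPM in differentiated SH-SY5Y libraries, against 4.01 to 13 CPM in Flp-In libraries. Single markers of the list split on differentiation of WT cells. PHOX2A and STMN2 were called higher and GATA3 and HAND2 lower, of 7 tested by gene counts. TH, a defining marker of that list, was at 0 in all undifferentiated and all mutant differentiated libraries. The counts do not separate the alleles of hnRNPA1, so they check no genotype label. In bulk RNA, fewer cells of a type and less RNA per cell cannot be told apart.

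Splicing of motor genes changed most often in differentiated heterozygous cells. Of 63 splicing events listed for motor genes, 14 events in 10 genes changed, or 22.2%, where 10.7% of all listed events changed. An event was counted when the adjusted p in the authors' deposited table was under 0.05, mean usage of a junction moved by at least 10 percentage points, no library had under 20 reads over the choice and the groups did not overlap. The homozygous comparison in differentiated cells had 2 changed events of 54, where 4.06% of all events changed. The undifferentiated comparison had 1 of 28, where 6.22% changed, and the Flp-In comparison had 2 of 18, where 3.14% changed. These differences between comparisons were not tested.

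Inclusion of single exons showed one direction in heterozygous cells. Inclusion is the mean of the reads over the junctions on either side of an exon, as a percent of that mean plus skipping reads. Skipping reads are those over the junction with the same outer ends, and other junctions past the exon were not counted. Of 89 motor gene exons measured, 13 exons in 9 genes were called and all 13 were included less than in WT. Among all 17343 exons measured, 3.87% were called and 2.08% were called as included less, which is 53.7% of those called. The 13 exons lie under 11 skipping junctions, since the KIF21A exons share one and 2 forms of a DCTN1 exon share another. They were short, from 15 to 129 nt with a median of 33 nt. The median was 79 nt over the motor gene exons measured, 91.5 nt over all exons called and 117 nt over all exons measured. Lengths were a multiple of 3, which keeps the reading frame of a coding exon, for 12 of the 13. The same held for 62.9% of the motor gene exons measured, 55.8% of all exons called and 39.7% of all exons measured. In homozygous cells 1 of 68 motor gene exons was called, where 0.816% of all exons were, and in undifferentiated cells 0 of 14, where 2.13% were. Coordinates are in hg38, as the splicing tables give them.

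Dynein's intermediate chains, the subunits that bind dynactin, lost exons of 60 nt. In DYNC1I1, the intermediate chain enriched in neurons, the exon at chr7:95828056-95828115 was included at 94.1%, 82.8% and 89.7% in the WT libraries, 69.9%, 65.8% and 75.9% in the homozygous libraries and 44.6%, 48.3% and 47.8% in the heterozygous libraries. The 3 genotypes did not overlap. The mean change was -41.9 points in heterozygous cells, with an adjusted p for the skipping junction of 1.299e-10 in the authors' deposited table. In homozygous cells the change was -18.3 points and that table gave 0.06551. A junction on the downstream side of the same exon was called in homozygous cells, with usage of 88.3% ± 5.25 (SD, n = 3) in WT and 61.5% ± 5.79 in homozygous libraries and an adjusted p of 0.002173 in the authors' deposited table.

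In DYNC1I2, the ubiquitous intermediate chain, the exon at chr2:171712766-171712825 was included at 95.2%, 94.7% and 95.4% in WT and 71.2%, 68.0% and 69.5% in heterozygous libraries. The homozygous libraries lay between them at 87.7%, 89.2% and 90.2%. These WT values rest on 6202 to 8935 reads over each flanking junction. The authors' deposited table gave adjusted p-values of 3.306e-46 for heterozygous and 2.819e-06 for homozygous cells, though the homozygous change of -6.05 points was below the 10 points needed for a call. Undifferentiated cells included the same exon at 88.3% ± 0.73 in WT and 80.2% ± 3.35 (SD, n = 3) in homozygous libraries, without overlap, and the authors' deposited table gave 0.4303 there.

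DYNC2H1, the heavy chain of the dynein that moves inside cilia, had a 21 nt exon at chr11:103241526-103241546 that was mostly skipped in every group. Inclusion was 24.8%, 25.5% and 30.2% in WT and 11.5%, 11.7% and 11.8% in heterozygous libraries, from 6 to 34 reads over each flanking junction. This was the one exon of the set for which heterozygous and homozygous libraries overlapped, the latter at 17.1%, 15.5% and 2.28%. Its adjusted p in the authors' deposited table, 0.04748, was near the threshold. DYNC2H1 also shifted to an upstream 3′ splice site. The junction ending at position 103192095 of chromosome 11, in place of 103192116, took 0%, 0% and 3.85% of 28 to 74 reads over the choice in WT and 39.4%, 47.5% and 34.1% of 40 to 88 reads in heterozygous libraries.

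DCTN1, the dynactin subunit that contacts both dynein and the microtubule, lost exons at 2 places. The 21 nt exon at chr2:74376741-74376761 was included at 91.3%, 91.3% and 92.5% in WT, 85.2%, 82.9% and 84.4% in homozygous and 62.1%, 58.5% and 64.5% in heterozygous libraries. Again the 3 genotypes did not overlap, and the adjusted p in the authors' deposited table was 3.905e-27 for heterozygous and 0.004206 for homozygous cells. A form of this exon 3 nt longer, from position 74376738, gave 90.5% in WT and 58.4% in heterozygous cells, with only 3 to 36 reads over its own junction. Flanking reads of the 21 nt form were unequal, 207 to 749 on one side and 1645 to 4583 on the other. Other alternative exons lie in the same skipped span.

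The other DCTN1 exon, of 15 nt at chr2:74363613-74363627, was included at 91.6%, 91.4% and 91.7% in WT and 75.3%, 76.9% and 71.7% in heterozygous libraries. Homozygous libraries were at 89.9%, 87.8% and 85.9%. Adjusted p-values in the authors' deposited table were 1.077e-11 for heterozygous and 0.4155 for homozygous cells. DCTN2, the dynactin subunit known as dynamitin, shifted toward a long junction from position 57535845 to 57546026 on chromosome 12, which took 9.43% of reads leaving its shared end in WT and 21.1% in heterozygous cells.

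Among the kinesin-3 genes, which move vesicles, KIF1C had the largest change of any motor gene exon. Its 23 nt exon at chr17:5019848-5019870 was included at 82.3%, 83.3% and 81.4% in WT, 63.8%, 70.5% and 62.8% in homozygous and 32.0%, 36.0% and 29.9% in heterozygous libraries. This was the exon called in both genotypes, with changes of -49.7 points in heterozygous and -16.6 points in homozygous cells and adjusted p-values of 6.012e-28 and 0.004019 in the authors' deposited table. It was also the called exon in these cells whose length is not a multiple of 3.

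KIF1B, which moves synaptic vesicle precursors and mitochondria through its isoforms, had 2 called exons. The 18 nt exon at chr1:10273013-10273030 was included at 91.3%, 88.2% and 91.2% in WT, 86.1%, 82.2% and 83.9% in homozygous and 77.6%, 76.3% and 78.2% in heterozygous libraries. The 42 nt exon at chr1:10279096-10279137 was included at 94.2%, 93.7% and 97.2% in WT and 80.9%, 71.3% and 74.4% in heterozygous libraries. For both, every heterozygous library lay under every WT library.

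KIF16B, which moves endosomes, had a 33 nt exon at chr20:16382097-16382129 that was included at 68.5%, 63.2% and 71.3% in WT and 36.5%, 41.4% and 51.8% in heterozygous libraries. Its reads were fewer, with 37 to 122 skipping reads per library, and the adjusted p in the authors' deposited table was 0.02532.

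KIF21A, a kinesin-4 that slows microtubule growth, lost a pair of neighbouring exons together. Both lie under the junction from 39311553 to 39319904 of chromosome 12, and the adjusted p of that junction in the authors' deposited table was 6.966e-07. The 39 nt exon at chr12:39315931-39315969 was included at 98.1%, 94.0% and 96.4% in WT, 93.4%, 90.9% and 93.6% in homozygous and 78.7%, 79.5% and 76.5% in heterozygous libraries. The 129 nt exon at chr12:39318072-39318200 had means of 97.2% in WT and 83.9% in heterozygous libraries.

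KIF2A, a kinesin-13 that takes microtubule ends apart and limits axon branching, had a 114 nt exon at chr5:62372437-62372550. It was included at 93.5%, 95.9% and 97.4% in WT, 92.4%, 91.6% and 89.4% in homozygous and 82.3%, 77.2% and 78.6% in heterozygous libraries. Undifferentiated WT cells included this exon much less, at 34.9%, 62.4% and 45.3%, and the undifferentiated homozygous libraries were at 77.9%, 88.8% and 71.0%. Those undifferentiated groups did not overlap, but the adjusted p in the authors' deposited table was 0.2055, so the exon was not called there. KIF2A also used its upstream 5′ splice site less, at 42.3% ± 2.31 of reads in WT and 29.1% ± 1.97 (SD, n = 3) in heterozygous cells. KIF26A, a kinesin that lacks motor activity, changed the balance of junctions ending at position 104139041 of chromosome 14, and the longest of them fell by 18.2 points.

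**Figure D1:**
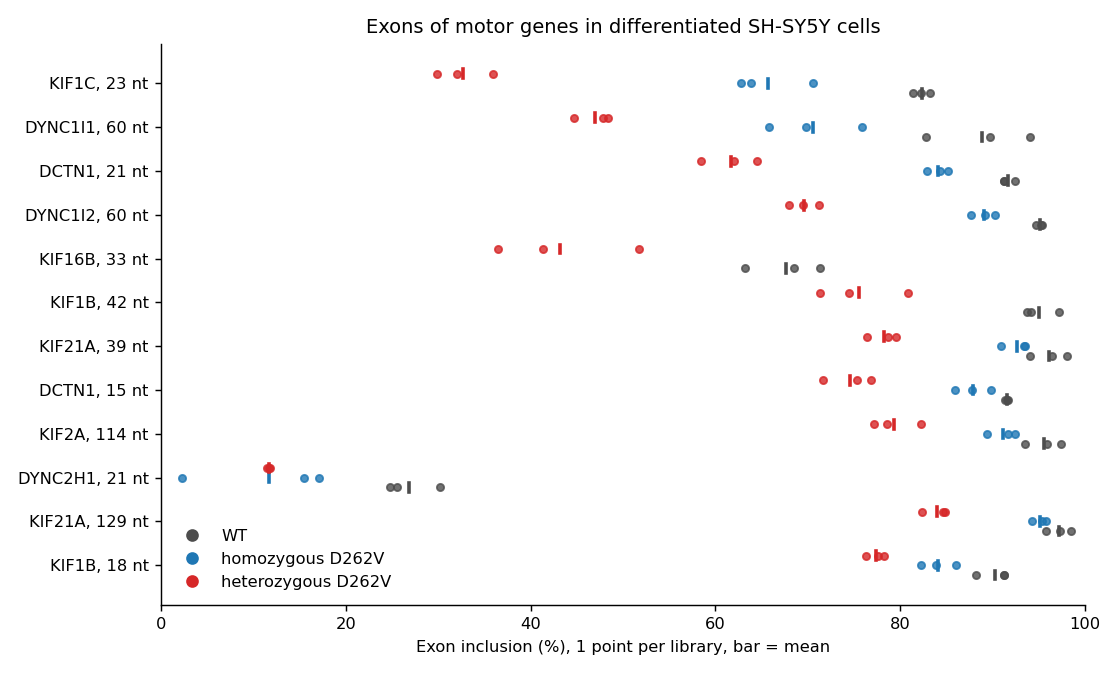
Inclusion (%) of 12 of the 13 motor gene exons called in differentiated heterozygous SH-SY5Y cells (the longer form of the DCTN1 exon is left out), with 1 point per library and a bar at the mean of WT, homozygous and heterozygous libraries. Heterozygous libraries lie lowest for every exon with all 3 genotypes except that of DYNC2H1, where they overlap the homozygous ones. The exons were picked by their fall in heterozygous cells, which favours that order.

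Wherever a called exon was measured in all 3 genotypes, DYNC2H1 apart, each heterozygous library was below each homozygous library. These exons were called on their fall in heterozygous cells against WT, which favours that order, and exons not called were not compared. The mean gap ran from -6.69 points for the 18 nt exon of KIF1B to -33.1 points for KIF1C. With 3 libraries against 3, an exact permutation test cannot go below p = 0.1, so no test was made for single exons. The heterozygous and homozygous comparisons share the same WT libraries, and their values stand side by side for that reason. A call required groups that do not overlap, so leaving out 1 library could not reverse a called exon's direction, and none reversed. With 1 library left out, the count of changed events in heterozygous cells ran from 14 to 15. In Flp-In cells the 2 called exons moved in different directions. KIF13A, a kinesin-3 of endosomes, included its 105 nt exon at chr6:17771113-17771217 at 15.8%, 29.0% and 19.1% in WT and 63.4%, 39.5% and 31.1% in D262V libraries. KIF23, a kinesin of the cytokinetic midzone, included its 312 nt exon at chr15:69440767-69441078 at 43.0%, 43.2% and 39.3% in WT and 30.3%, 24.1% and 24.9% in D262V libraries. Of all exons measured in Flp-In cells, 1.97% were called. The event in undifferentiated homozygous cells was an alternative 5′ splice site of KIF23, used at 11.2% ± 4.27 in WT and at 0% in homozygous libraries. The latter is 0 of 351 reads over the choice, which allows a share of up to 0.855%, a limit that covers counting error only.

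Junction reads of 30 motor genes were tested in differentiated homozygous cells and 12 were called, 7 higher and 5 lower. The share of 40.0% stands beside 32.7% of all genes in that table, 16.6% higher and 16.1% lower. In heterozygous cells 14 of 33 were called, 7 higher and 7 lower, or 42.4% beside 25.3% of all genes, 12.9% higher and 12.4% lower. Median log2 fold changes of the tested motor genes were 0.03 and -0.02, against 0.01 and 0.00 over all genes tested.

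KIF5A, KIF1A and KIF1B, kinesins that carry cargo along axons, were higher in homozygous cells. KIF5A, the neuron-specific kinesin-1 heavy chain, had 90.4, 99.9 and 100 CPM in WT and 131, 152 and 137 CPM in homozygous libraries, which do not overlap (log2 fold change 0.53 ± 0.09 SE, adjusted p = 7.2e-06). In heterozygous cells its log2 fold change was -0.20 ± 0.13 SE, with an adjusted p of 0.27. The KIF5A junctions listed differ between the 2 comparisons. The most-read had a WT mean of 1166 reads in the homozygous and 4903 in the heterozygous comparison. KIF1A, the kinesin-3 that carries synaptic vesicle precursors, had 562, 606 and 615 CPM in WT and 763, 823 and 821 CPM in homozygous libraries (log2 fold change 0.43 ± 0.08, adjusted p = 3.2e-05). It was also higher in heterozygous cells, by 0.67 ± 0.14, but its most-read junction alone did not pass the test there. KIF1B rose by 0.58 in homozygous cells and likewise failed with its most-read junction alone. KIF3C, a neuronal kinesin-2, rose by 0.36 in heterozygous cells, a call lost without WT replicate 1, WT replicate 2 or heterozygous replicate 1.

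KIF1C rose by 0.81 ± 0.16 on the log2 scale in heterozygous cells when its junctions were summed, at 20.2, 27.3 and 20.6 CPM in WT and 43.2, 42.7 and 33.4 CPM in heterozygous libraries. Its most-read junction alone gave -0.094 with an adjusted p of 0.77. The skipping junction of its 23 nt exon is among the summed junctions, and its reads went from 64, 121 and 71 in WT to 676, 577 and 489 in heterozygous libraries.

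The cytoplasmic dynein subunits DYNC1H1, DYNC1I1, DYNC1LI1 and DYNC1LI2 rose in heterozygous cells, 4 of the 5 tested, with a median log2 fold change of 0.48. DYNC1I1 showed the largest rise, with 10.1, 10.7 and 16.6 CPM in WT and 43.2, 44.4 and 56.3 CPM in heterozygous libraries (log2 fold change 1.94 ± 0.19 SE, adjusted p = 1.5e-06). It was at 12.6, 13.1 and 20.7 CPM in WT and 25.05, 31.7 and 23.2 CPM in homozygous libraries, a rise of 0.79 ± 0.15 with an adjusted p of 7.8e-05. DYNC1LI2, a light intermediate chain that holds cargo adaptors, rose by 0.31 in homozygous and 0.66 in heterozygous cells. DYNC1LI1 rose by 0.48 and DYNC1H1, the heavy chain motor, by 0.39 in heterozygous cells. The DYNC1H1 call was lost without any 1 WT library or without heterozygous replicate 2, the DYNC1LI1 call without WT replicate 2, and the homozygous DYNC1LI2 call without homozygous replicate 3. DYNC1H1 could not be compared well in the homozygous table, whose listed junctions held 5 to 48 of its reads per library.

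Among dynein light chains, small subunits that also serve other complexes, 4 of 5 tested fell in homozygous and 2 of 6 in heterozygous cells. DYNLT1 fell in both genotypes. It had 1677, 1805 and 1450 CPM in WT and 1066, 1117 and 831 CPM in homozygous libraries (log2 fold change -0.71 ± 0.09 SE, adjusted p = 5.4e-08). In the heterozygous table it had 3391, 3225 and 2771 CPM in WT and 1706, 2068 and 2030 CPM in heterozygous libraries, a change of -0.69 ± 0.12 with an adjusted p of 0.00054. In neither table did the groups overlap. DYNLT3 had 46.0, 46.1 and 51.1 CPM in WT and 22.6, 19.8 and 22.3 CPM in homozygous libraries (log2 fold change -1.15 ± 0.11 SE, adjusted p = 8.7e-11). In heterozygous cells the DYNLT3 value was -0.17 with an adjusted p of 0.41. Its gene counts were low and gave the same direction, with 1.54, 6.23 and 4.95 CPM in WT and 1.54, 1.34 and 1.02 CPM in homozygous libraries, an adjusted p of 0.031 and a call lost in 5 of 6 fits that left out a library and with the replicate number as a block. DYNLL1 fell by 0.37 in homozygous and by 0.40 in heterozygous cells, and DYNLRB1 fell by 0.24 in homozygous cells. Without WT replicate 1 the DYNLL1 values were -0.22 and -0.25. The heterozygous DYNLL1 call was lost without WT replicate 1, WT replicate 2 or heterozygous replicate 1, and the DYNLRB1 call in 4 of 6 such fits.

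Dynactin genes were lower in heterozygous cells for 3 of the 6 tested. DCTN1 had 492, 472 and 469 CPM in WT and 382, 386 and 340 CPM in heterozygous libraries (log2 fold change -0.37 ± 0.11 SE, adjusted p = 0.020). DCTN3 fell by 0.39 and DCTN5 by 0.52. Leaving out any 1 WT library lost the DCTN1 call, and the DCTN3 and DCTN5 calls were lost in 4 and 2 of 6 such fits. None of the 4 dynactin genes tested in homozygous cells was called, and DCTN1 stood at 0.18 there with an adjusted p of 0.062.

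KIF26B, a kinesin of the same atypical group as KIF26A with a role in cell adhesion and polarity, had the lowest log2 fold change among the heterozygous junction read calls. It had 20.2, 22.8 and 26.8 CPM in WT and 9.57, 11.2 and 10.8 CPM in homozygous libraries (log2 fold change -1.14 ± 0.14 SE, adjusted p = 2.6e-08). In the heterozygous table it had 9.12, 8.64 and 12.8 CPM in WT and 1.81, 0.70 and 2.03 CPM in heterozygous libraries, a change of -2.75 ± 0.32 with an adjusted p of 1e-05. The groups did not overlap in either table, and both calls held in every fit that left out 1 library. Gene counts of KIF26B also fell in heterozygous cells, by 1.21 on the log2 scale with an adjusted p of 0.048, from 7.28, 3.18 and 5.25 CPM in WT to 2.03, 2.30 and 2.37 CPM. That gene count call was lost in 5 of 6 such fits, and also with DESeq2, RLE scaling, no low-count filter or the replicate number as a block. KIF9, a kinesin of motile cilia, was the other gene called lower by both measures in heterozygous cells, by 0.42 with junction reads and by 0.35 with gene counts. Its junction reads were 37.8, 34.0 and 28.9 CPM in WT and 23.3, 25.1 and 26.8 CPM in heterozygous libraries, and its gene counts 213, 249 and 237 CPM against 166, 203 and 182 CPM. Both KIF9 calls were near the threshold and were lost in 5 and 4 of 6 such fits.

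**Figure D2:**
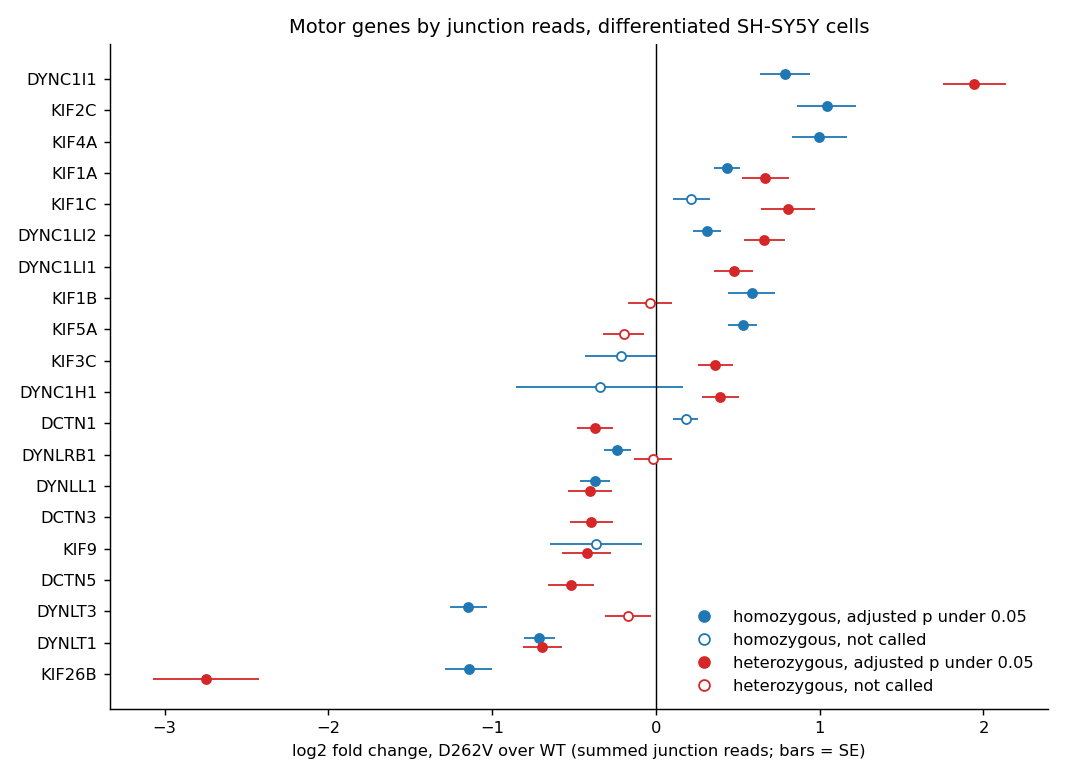
Log2 fold change (D262V over WT) of summed junction reads for the motor genes called in differentiated homozygous or heterozygous SH-SY5Y cells, with SE bars and filled points for an adjusted p under 0.05. KIF26B lies furthest to the left and DYNC1I1 furthest to the right among heterozygous calls, at -2.75 and 1.94.

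**Figure D3:**
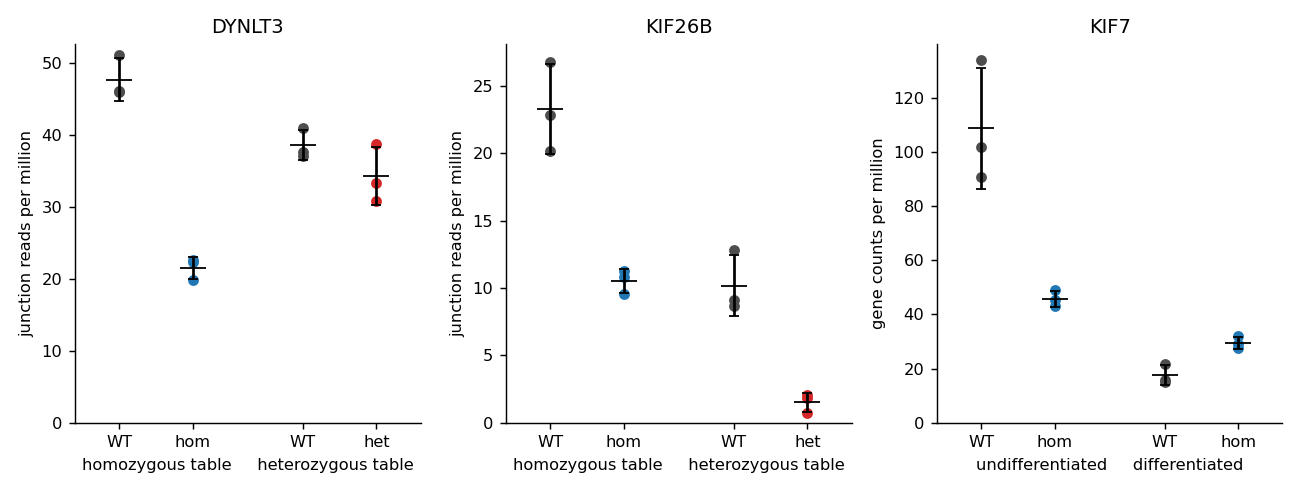
CPM in every library (points) with the mean and SD (bars): junction reads of DYNLT3 and KIF26B in the homozygous and the heterozygous table, each beside its own WT values, and gene counts of KIF7 from the joint fit of both states. DYNLT3 lies lower in homozygous cells, KIF26B in both genotypes, and KIF7 lower in undifferentiated and higher in differentiated homozygous cells.

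Spindle kinesins KIF2C, which removes tubulin at kinetochores, and KIF4A, which organises chromosome arms and the midzone, were higher in differentiated homozygous cells. KIF2C had 4.75, 6.79 and 5.76 CPM in WT and 12.6, 10.8 and 12.4 CPM in homozygous libraries (log2 fold change 1.04 ± 0.18 SE, adjusted p = 2e-05). KIF4A had 9.0, 7.47 and 6.05 CPM in WT and 16.5, 14.9 and 13.6 CPM in homozygous libraries (log2 fold change 1.00 ± 0.17 SE, adjusted p = 1.1e-05). Neither gene's groups overlapped. Beside them, 5 of 6 cell cycle genes tested by junction reads were higher in these cells, where 16.6% of all genes were. These were AURKA, AURKB, CCNB1, MCM3 and MCM5, and the 6 genes had a median log2 fold change of 0.55. In undifferentiated homozygous cells 10 of 14 cell cycle genes were lower, with a median of -0.85, where 283 of all 4806 genes tested were lower. There KIF4A stood at -0.87 with an adjusted p of 0.14 and KIF2C at -0.39 with an adjusted p of 0.23. By gene counts 2 of 15 cell cycle genes, MKI67 and TYMS, were higher in differentiated homozygous cells, where 3.12% of all genes were. In undifferentiated homozygous cells 0 of 16 were called by gene counts, where 3.67% of all genes were. How far the share of dividing cells enters the spindle kinesin values was not tested.

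Promoters of these spindle kinesins and of KIF18B and KIF20A, both lower after differentiation, are printed because they share short elements found in many cell cycle promoters, known as the cell cycle genes homology region. The letters searched were TTTGAA and TTTAAA on either strand, without overlap between them, and matches are in capitals. The sequences are from RefSeq on GRCh38.p14 and run 5′ to 3′ on the gene's strand, from 250 bases before the transcript start to 50 after it. KIF2C lies at chr1:44739587-44739886 on the plus strand, KIF4A at chrX:70289854-70290153 on the plus strand, KIF18B at chr17:44947724-44948023 on the minus strand and KIF20A at chr5:138178862-138179161 on the plus strand.
KIF2C: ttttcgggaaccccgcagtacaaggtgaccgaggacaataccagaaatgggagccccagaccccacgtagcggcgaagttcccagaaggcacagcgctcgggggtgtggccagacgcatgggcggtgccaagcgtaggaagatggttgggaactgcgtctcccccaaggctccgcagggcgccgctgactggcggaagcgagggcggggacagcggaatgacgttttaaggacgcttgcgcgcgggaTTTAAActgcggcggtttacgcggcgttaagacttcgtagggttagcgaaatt
KIF4A: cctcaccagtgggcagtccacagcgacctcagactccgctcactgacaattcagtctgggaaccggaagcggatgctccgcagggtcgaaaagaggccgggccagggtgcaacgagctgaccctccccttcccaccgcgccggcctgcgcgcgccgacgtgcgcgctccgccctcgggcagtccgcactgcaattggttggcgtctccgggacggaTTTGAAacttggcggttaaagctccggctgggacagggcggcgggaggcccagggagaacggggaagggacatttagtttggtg
KIF18B: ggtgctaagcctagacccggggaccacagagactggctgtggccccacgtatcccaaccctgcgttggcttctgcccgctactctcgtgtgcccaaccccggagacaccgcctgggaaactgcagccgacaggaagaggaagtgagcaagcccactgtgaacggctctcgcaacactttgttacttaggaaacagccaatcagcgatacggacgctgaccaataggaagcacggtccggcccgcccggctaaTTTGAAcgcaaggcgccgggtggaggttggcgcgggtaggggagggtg
KIF20A: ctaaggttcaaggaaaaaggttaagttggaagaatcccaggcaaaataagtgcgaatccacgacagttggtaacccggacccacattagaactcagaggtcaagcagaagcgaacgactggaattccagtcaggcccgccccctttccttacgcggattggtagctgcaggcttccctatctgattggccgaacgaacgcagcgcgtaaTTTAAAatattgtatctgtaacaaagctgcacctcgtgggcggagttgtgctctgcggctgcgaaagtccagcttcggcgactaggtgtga
Counted from the transcript start as 0, the first base of the match was at -3 in KIF2C, -34 in KIF4A, 2 in KIF18B and -41 in KIF20A. RefSeq held a promoter for 51 of the 59 genes. TTTGAA or TTTAAA was found in 10 of the 11 mitotic kinesin promoters, all but KIF22, and in 4 of the other 40, which are those of DYNC2LI1, KIF16B, KIF4B and KIF5B. Of all 27305 promoters of this length, 15.4% held TTTGAA, 12.3% held TTTAAA and 24.3% held either. A match describes the letters only.

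By gene counts, 7 of 47 motor genes tested were called in heterozygous cells, 1 higher and 6 lower, or 14.9% beside 16.4% of all genes, 7.97% higher and 8.47% lower. KIF1B was the one that rose, with 33.9, 38.3 and 31.6 CPM in WT and 69.8, 68.6 and 77.9 CPM in heterozygous libraries (log2 fold change 1.06 ± 0.15 SE, adjusted p = 4.6e-06). Its junction reads did not show this, at -0.04 with an adjusted p of 0.86. KIF5C, a neuronal kinesin-1 heavy chain, had 67.0, 65.4 and 72.6 CPM in WT and 45.9, 43.9 and 40.0 CPM in heterozygous libraries (log2 fold change -0.66 ± 0.15 SE, adjusted p = 0.0020). In homozygous cells the KIF5C value was 0.35 with an adjusted p of 0.19. KIF1B and KIF5C were the 2 of these 7 that stayed called in every fit that left out a library. KIF3A, a kinesin-2 of cilia and axons, fell by 0.79, from 14.3, 17.7 and 16.4 CPM to 11.5, 6.78 and 9.69 CPM, while its junction reads stood at 0.06 with an adjusted p of 0.80. KIF5B, the ubiquitous kinesin-1 heavy chain, fell by 0.64 and KIF25 fell by 0.84, and both calls were lost in 4 of 6 such fits. The KIF3A call was lost without WT replicate 2 or heterozygous replicate 2. Mesenchymal markers moved in the same libraries, with 4 of 6 tested higher (COL3A1, FN1, SPARC and VIM) and a summed level of 86.6 to 92.6 CPM, against 59.8 to 79.4 CPM in WT. Their part in the motor gene values was not tested.

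KIF7, a kinesin-4 that sets Hedgehog signalling at the tip of the cilium, moved in opposite directions in the 2 states of homozygous cells. It was the only motor gene called by gene counts in undifferentiated cells, 1 of 33 tested, where 3.67% of all genes were called. There it had 83.8, 94.6 and 126 CPM in WT and 40.2, 45.7 and 42.1 CPM in homozygous libraries (log2 fold change -1.25 ± 0.21 SE, adjusted p = 0.0093). In differentiated cells KIF7 had 17.0, 23.2 and 16.1 CPM in WT and 31.4, 29.4 and 34.1 CPM in homozygous libraries (log2 fold change 0.74 ± 0.18 SE, adjusted p = 0.0095). It and DYNLT3 were the 2 of 47 motor genes called there, where 6.08% of all genes were, 3.12% higher and 2.96% lower. The groups overlapped in neither state. The undifferentiated call was lost without homozygous replicate 1 or 3, and the differentiated call without WT replicate 1, WT replicate 3 or homozygous replicate 3.

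The difference between the states was itself tested. The interaction of genotype and differentiation was 2.00 ± 0.28 SE on the log2 scale for KIF7, with an adjusted p of 0.0007, and held in all 12 fits that left out a library. It was 1 of 46 motor genes with such an interaction, where 4.5% of all genes had one. KIF7 lies on the strand opposite to TICRR, a DNA replication gene, and the 2 genes overlap. Use of strand in the counting is a setting not given in the sources used here, so reads of the pair may not be separable. TICRR gene counts were not called in either state, at 0.31 and -0.04, while TICRR junction reads rose by 2.75 in differentiated homozygous cells. In heterozygous cells TICRR junction reads rose by 2.79 with an adjusted p of 0.0040, and KIF7 gene counts there stood at 0.33 with an adjusted p of 0.26. KIF7 junction reads were tested in Flp-In cells alone, where the value was 0.01 with an adjusted p of 0.97. Mesenchymal markers summed to 109 to 154 CPM in undifferentiated homozygous and 60.5 to 74.2 CPM in undifferentiated WT libraries, where COL3A1 and VIM were called higher of 5 tested. In the interaction the same 2 markers were called lower of 6 tested, and the median of the list was -1.24. Their part in the KIF7 values was not tested.

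Junction reads in undifferentiated homozygous cells gave 3 calls among 21 motor genes, or 14.3% beside 11.1% of all genes. DCTN2 had 78.0, 58.1 and 64.6 CPM in WT and 109, 90.4 and 118 CPM in homozygous libraries, a log2 fold change of 0.66 with an adjusted p of 0.036. DYNC2LI1, the light intermediate chain of ciliary dynein, had 49.7, 61.5 and 49.0 CPM in WT and 91.8, 91.2 and 98.3 CPM in homozygous libraries, a change of 0.81 with an adjusted p of 0.012. KIF21A had 378, 480 and 402 CPM in WT and 302, 275 and 261 CPM in homozygous libraries, a change of -0.59 with an adjusted p of 0.0060. Each of the 3 calls was lost without homozygous replicate 3, those of DCTN2 and KIF21A also without WT replicate 2, and that of DCTN2 in 4 of 6 fits that left out a library, among them those without homozygous replicate 1 or 2. With the most-read junction alone DYNC2LI1 and KIF21A were not called. The mesenchymal markers described beside KIF7 moved in the same libraries.

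Flp-In cells gave few calls. None of 34 motor genes was called by edgeR on gene counts, where 5.84% of all genes were, while 6 had an unadjusted p under 0.05 and DESeq2 called 0. Without D262V replicate 2 the edgeR count was 4. By junction reads 1 of 11 was called, where 16.6% of all genes were. This was KIF14, a mitotic kinesin-3, with 53.8, 83.8 and 69.3 CPM in WT and 97.0, 88.9 and 105 CPM in D262V libraries. Its log2 fold change was 0.50 with an adjusted p of 0.026, and the call was lost without WT replicate 1, WT replicate 3, D262V replicate 1 or D262V replicate 3.

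Differentiation of WT SH-SY5Y cells gave the most calls among the motor genes. By gene counts 26 of 46 tested were called, 20 higher and 6 lower, or 56.5% beside 43.1% of all genes, 26.6% higher and 16.5% lower. Their median log2 fold change was 0.91, against 0.39 over all genes. The 2 states come from separate tables, so table and state cannot be told apart. Changes below are from the joint fit of both tables.

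DYNC1LI2 had 3.27, 4.22 and 1.88 CPM in undifferentiated and 97.5, 99.8 and 118 CPM in differentiated WT libraries (log2 fold change 5.04 ± 0.26 SE, adjusted p = 4.1e-10). KIF5C had 4.91, 5.22 and 2.82 CPM before and 62.3, 61.1 and 67.0 CPM after (log2 fold change 3.85 ± 0.48 SE, adjusted p = 9.2e-06). KIF5A, the kinesin-1 of motor neuron disease, went from 3.51, 5.22 and 2.82 CPM to 31.3, 26.8 and 27.3 CPM (2.87 ± 0.46 SE, adjusted p = 0.00012). The kinesin-2 genes KIF3A, KIF3B and KIF3C rose by 3.54, 3.40 and 2.37. KIF3A had 0.23, 3.48 and 0 CPM before and 13.3, 16.6 and 15.2 CPM after, and KIF3B had 0.94, 1.49 and 3.13 CPM before and 20.0, 17.7 and 19.7 CPM after. Without undifferentiated WT replicate 2 the KIF3A value was 6.67. All 4 cytoplasmic dynein genes tested rose, among them DYNC1I2 by 2.45, DYNC1LI1 by 1.78 and DYNC1H1 by 0.92. Of 5 light chain genes tested 4 rose, from DYNLRB1 at 1.28 to DYNLT1 at 3.11. KIF1B rose by 1.69 and KIF1A by 0.58. KIF25 rose by 3.42 from 0, 3.98 and 0 CPM to 13.4, 13.7 and 16.9 CPM, so its fold rests on few reads. The KIF25 value was 10.04 without undifferentiated WT replicate 2, a fitted value that is no bound since the other 2 undifferentiated libraries are at 0. The KIF25 call was lost without differentiated WT replicate 3 or with DESeq2.

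The 6 that fell included KIF20A, which is needed for cytokinesis, with 102, 39.8 and 71.1 CPM before and 5.72, 6.25 and 8.50 CPM after differentiation (log2 fold change -3.38 ± 0.31 SE, adjusted p = 2.8e-07). KIF18B, a kinesin of astral microtubules, had 2.57, 4.97 and 7.52 CPM before and 0.86, 0.61 and 0.46 CPM after (-2.94 ± 0.85 SE, adjusted p = 0.011). The KIF18B call was lost without differentiated WT replicate 3, with an adjusted p of 0.053. KIF24, which restrains cilium formation, fell by 2.41 and KIF7 fell by 2.63. Of the 8 mitotic kinesins tested these 2, KIF20A and KIF18B, were called. Beside them 12 of 18 cell cycle genes fell, with a median of -2.30. DCTN2 fell by 2.83 and DYNC2H1 by 1.95.

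Of the 6 genes that fell, KIF20A, KIF24, KIF7 and DCTN2 overlap a gene on the opposite strand in RefSeq, as do 6 of the 20 that rose and 18 of the 51 motor genes with a RefSeq span and strand. CDC23, opposite KIF20A, changed by -3.58 and UBAP1, opposite KIF24, by -1.59, and both were called. MBD6, opposite DCTN2, stood at 0.59 and TICRR, opposite KIF7, at -0.08, and neither was called. Junction reads, which carry strand through the splice motif, were tested for 8 motor genes across the states and gave 4 calls, all higher, where 65.9% of all genes were called, 33.8% higher and 32% lower. DCTN1 had 275, 323 and 288 CPM before and 1175, 1045 and 1126 CPM after (log2 fold change 1.92 ± 0.12 SE, adjusted p = 5.5e-10). Its gene counts gave -0.45 with an adjusted p of 0.34, while those of DCTN1-AS1 on the opposite strand rose by 3.29 with an adjusted p of 2.6e-07. DCTN6 had 203, 298 and 137 CPM before and 578, 513 and 510 CPM after, a rise of 1.32. DYNC1I2 rose by 0.69 and KIF21A by 0.55, and gene counts of both were called in the same direction.

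**Figure D4:**
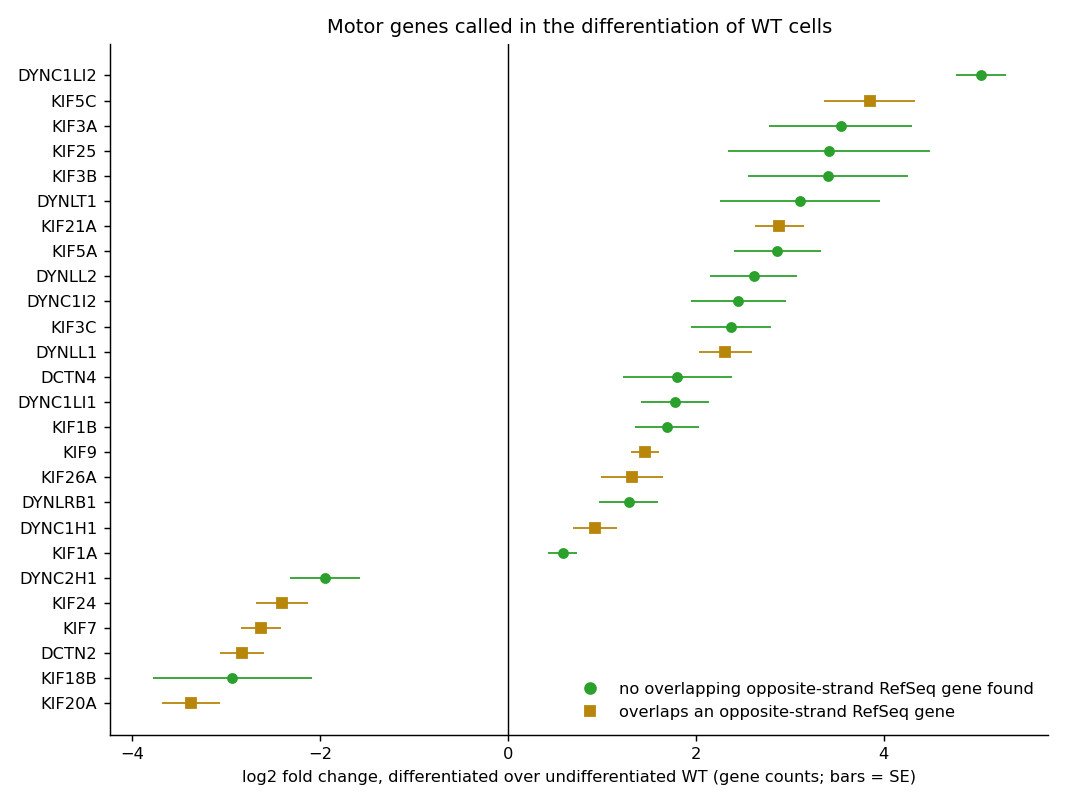
Log2 fold change of gene counts, differentiated over undifferentiated WT SH-SY5Y cells, for the 26 motor genes called, with SE bars and square symbols for genes that overlap an opposite-strand gene. DYNC1LI2 lies highest at 5.04 and KIF20A lowest at -3.38.

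Partners of the motors were read from lists of kinesin light chains and motor adaptors (23 genes) and of dynein and dynactin regulators (22 genes). After differentiation 9 adaptors rose and 3 fell of 22 tested by gene counts, and 7 dynein regulators rose and 2 fell of 15. Of all genes, 43.1% were called in that comparison, 26.6% higher and 16.5% lower. PAFAH1B1 (LIS1), which holds dynein in its active state, and NDEL1, its partner, were among the regulators that rose. HOOK2, a dynein activating adaptor, fell in both differentiated mutant genotypes by gene counts, with log2 fold changes of -1.46 in homozygous and -2.05 in heterozygous cells and adjusted p-values of 8.3e-08 and 1e-10. Its junction reads fell too, by 0.23 and 0.47. In undifferentiated homozygous cells HOOK2 junction reads were instead called higher. HOOK2 gene counts were called lower in the interaction of genotype and differentiation. BICD2, the adaptor for Golgi and nuclear cargo, rose by 0.58 in differentiated homozygous and 1.46 in heterozygous cells with junction reads. RHOT2, which links motors to mitochondria, fell by 0.69 and 1.07 with gene counts in the same 2 genotypes. MAPK8IP3, a JNK scaffold that binds both motor types, fell by 0.61 with junction reads in heterozygous cells. The homozygous and heterozygous values again share their WT libraries. KIDINS220, a membrane scaffold carried by kinesin-1, rose by 0.49 in homozygous and fell by 0.67 in heterozygous cells with junction reads. By gene counts homozygous cells had 0 adaptors higher and 1 lower of 22 and 1 regulator higher and 1 lower of 17, where 6.08% of all genes were called. Heterozygous cells had 1 adaptor higher and 3 lower of 22 and 0 regulators higher and 2 lower of 17, where 16.4% of all genes were called. By junction reads homozygous cells had 2 adaptors higher and 1 lower of 12 and 2 regulators higher and 1 lower of 10, beside 32.7% of all genes. Heterozygous cells had 3 adaptors higher and 3 lower of 17 and 3 regulators higher and 1 lower of 10, beside 25.3%.

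hnRNPA1 irCLIP clusters named 46 of the 59 motor genes in at least 1 list. In SH-SY5Y cells 2981 of 583264 clusters in the WT list and 2752 of 539011 in the D262V list named a motor gene. In Flp-In cells the numbers were 2286 of 519183 and 2178 of 483849. Each list pools 3 samples, so these are descriptions without replicates, and the labels do not give the zygosity or differentiation state of the SH-SY5Y cells. Motor genes with a cluster had a median of 0.88 clusters per kb of gene in the SH-SY5Y WT list, against 0.87 over protein-coding genes, and 0.82 against 0.85 in the D262V list.

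The most clusters were in long genes. In the SH-SY5Y WT list KIF26B had 302, DYNC2H1 284, KIF21A 196, KIF13A 187 and KIF1B 185, and the D262V list held 258, 310, 193, 192 and 186. KIF26B, KIF13B, KIF5C and KIF3C were named by no Flp-In cluster, while DYNC2H1 had 322 and 335. KIF1A had 40 clusters in the SH-SY5Y WT list and none in the D262V list, and KIF24 had 72 and none. KIF16B, DYNC1I1 and KIF6 had none in any list, though their genes span 301 to 395 kb. Whether a gene without clusters lacks hnRNPA1 contacts or was left out of that list as a whole was not tested. Of the SH-SY5Y WT clusters in motor genes, 87.4% overlapped a D262V cluster by at least 1 base, and 89.1% of the D262V clusters overlapped a WT one. Over all SH-SY5Y clusters these shares were 84.8% and 89.2%. In Flp-In cells the shares were 85.6% and 88.6% in motor genes, beside 83.0% and 87.5% over all clusters.

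**Figure D5:**
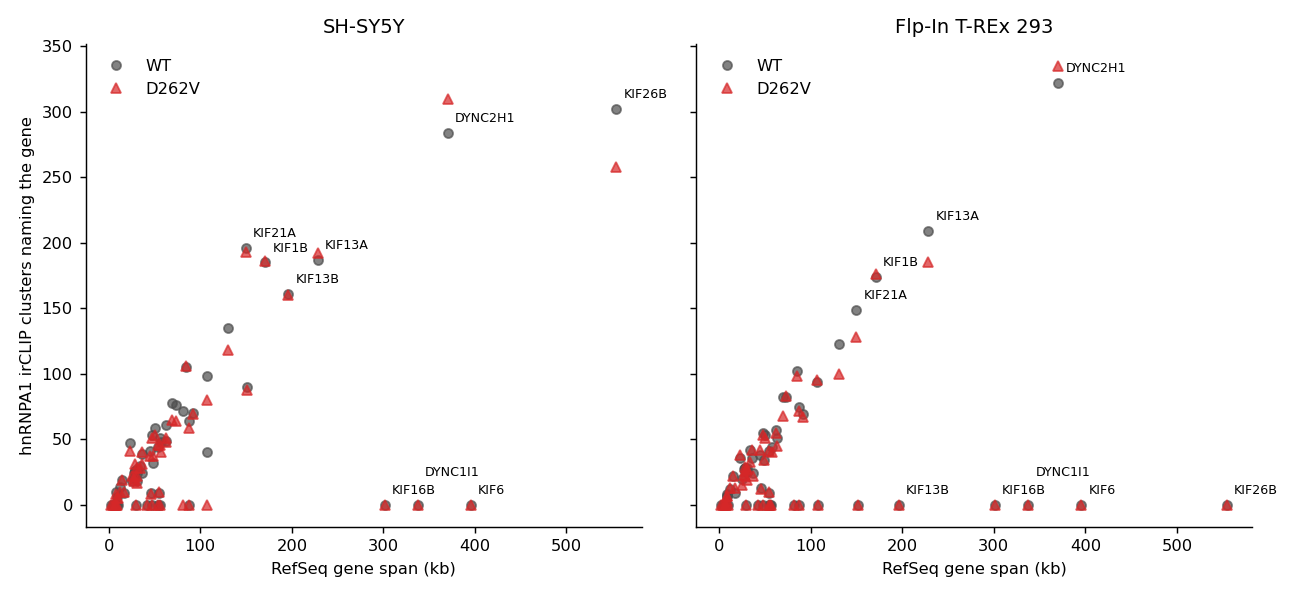
Number of hnRNPA1 irCLIP clusters naming each motor gene against its RefSeq span (kb), in SH-SY5Y and Flp-In cells, with WT and D262V lists as separate symbols. KIF26B and DYNC2H1 carry the most clusters in SH-SY5Y cells, and KIF26B has none in Flp-In cells.

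Clusters were also counted inside the skipped spans of the called exons. The span of the KIF2A exon held 19 clusters in the SH-SY5Y WT list and 16 in the D262V list, with top scores, the authors' own value per cluster, of 889 and 913. The KIF21A span held 6 in each list, with top scores of 873 and 927, and the span of the 21 nt DCTN1 exon held 6 in each, with 346 and 400. The DYNC1I2 span held 6 and 4, and the KIF1C span 3 and 1. The spans of the KIF16B and DYNC1I1 exons held none. KIF16B and DYNC1I1 were named by no cluster in any list. How the exon changes relate to clusters in the spans was not tested.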

How the data were processed

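The authors deposited gene counts as whole numbers of reads per symbol, with separate tables for the undifferentiated, differentiated and Flp-In libraries. STAR 2.5.3a, HTSeq, DESeq2, Cufflinks and the build hg38 are named in the submitters' processing notes. Neither annotation nor strand handling is given in the sources used here. Deposited splicing tables (JUM format, per the file headers) hold counts per junction, the usage of each junction as a percent, and the authors' p-value with its adjusted p-value. The deposited irCLIP lists give a cluster's position and the authors' score (no unit stated) for 3 pooled samples. No column was left unmatched (0).

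Rows that name no gene (92.2% to 94.6% of uniquely aligned reads) entered neither library sizes nor tests. Gene counts and summed junction counts were tested over all genes with edgeR 4.0.16 (R 4.3.3), by its quasi-likelihood test after TMM scaling and its low-count filter, with Benjamini-Hochberg adjustment. Each table was fitted by itself, and a joint fit gave differentiation and the interaction. Exon inclusion, for exons up to 500 nt, was chosen as a measure after seeing the data. Clusters were matched by gene name and coordinates (bedtools 2.31.1). In simulated differentiated heterozygous data of 15450 genes, the gene count test found 77% of 2-fold and 99% of 4-fold changes. The junction test found 98% and 100% in data of 6528 genes. For the undifferentiated comparison the gene count test found 38% and 86% in data of 10262 genes. Changes were placed only in genes above a minimum of expected reads, so recovery for motor genes with few reads is not known. In undifferentiated WT libraries KIF3A had a mean of 5 gene reads and KIF2A 8.

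Members and lists were chosen with earlier results of these data known. Symbols with a hyphen (3) were left out. Of the 59 genes, 49 passed the low-count filter in at least 1 comparison, 48 had a listed junction, and DYNC1I1, DYNLRB2, KIF12, KIF15, KIF18A, KIF19, KIF21B, KIF27, KIF2B and KIF4B were tested by gene counts nowhere, the last 2 with 0 reads. Values per library are given for members called by both measures, up to 6 further members per comparison by fold change, members with a changed splicing event and the 5 with most clusters. Promoter letters came from RefSeq (GRCh38.p14).

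Alternatives were DESeq2 1.42.0, RLE scaling, no low-count filter, a fit of the 6 libraries alone, a replicate block, the most-read junction alone, other usage and read minimums, a score minimum, and leaving out each library.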

Additional observations from a re-analysis of the deposited data

Results flagged for a closer look

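The effect of the homozygous mutation on KIF7 gene counts differed between the differentiation states. The log2 fold change in differentiated cells minus that in undifferentiated cells was 2.00 ± 0.28 SE, with an adjusted p of 0.0007 from edgeR's interaction term. In the joint fit the mean was 109 ± 22.4 CPM in undifferentiated WT, 45.8 ± 2.88 in undifferentiated homozygous, 17.5 ± 3.70 in differentiated WT and 29.5 ± 2.22 (SD, n = 3 each) in differentiated homozygous libraries. KIF7 shares its locus with TICRR on the opposite strand, whose own interaction was -0.35 with an adjusted p of 0.41.

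Of 7 motor gene exons measured in both homozygous comparisons, 3 had every undifferentiated homozygous library on one side of all WT libraries of that state and every differentiated homozygous library on the other side of theirs. The share over all exons measured in both comparisons was not computed, so whether 3 of 7 is unusual is not known. The difference between the states was not tested, and only the DCTN1 value in differentiated cells had an adjusted p under 0.05 in the authors' deposited table. The 21 nt exon of DCTN1 was at 55.0% in WT and 61.8% in homozygous libraries undifferentiated and at 91.7% and 84.1% differentiated, a difference between the states of -14.3 points. Adjusted p-values in the authors' deposited table were 0.7675 and 0.004206. The 39 nt exon of KIF21A at chr12:39346465-39346503 was at 3.5% and 7.57% undifferentiated and at 9.28% and 7.59% differentiated, a difference of -5.76 points, with 0.5496 and 0.6589 in the authors' deposited table. The 114 nt exon of KIF2A was at 47.5% and 79.2% and then at 95.6% and 91.1%, a difference of -36.2 points, with 0.2055 and 0.2503 in the authors' deposited table. In WT cells the DCTN1 and KIF2A exons were included less before differentiation than after it.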

How the results depend on the processing

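Of 71 called motor gene tests, 357 of 432 values from fits that left out 1 library and 308 of 327 values from other settings stayed called. One direction reversed: KIF1C junction reads in heterozygous cells, -0.094 with the most-read junction alone.

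Counts of called motor genes by gene counts ranged over left-out libraries from 0 to 1 in undifferentiated cells (reported 1), 1 to 2 in differentiated homozygous cells (reported 2), 3 to 9 in heterozygous cells (reported 7, with 3 without WT replicate 1 or 3 and 4 without WT replicate 2), 0 to 4 in Flp-In cells (reported 0), 23 to 27 for differentiation (reported 26) and 1 to 2 for the interaction (reported 1). The fit of 6 libraries alone gave 5 in homozygous cells, and DESeq2 gave 4 in heterozygous cells. DESeq2 and the fit with no low-count filter each gave 2 for the interaction.

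By junction reads the ranges were 0 to 4 in undifferentiated cells (reported 3), 10 to 13 in homozygous (reported 12), 7 to 16 in heterozygous (reported 14, with 8 without WT replicate 1 and 7 without WT replicate 2), 0 to 3 in Flp-In cells (reported 1) and 4 to 5 for differentiation (reported 4). The most-read junction alone gave 1 in undifferentiated and 2 in Flp-In cells. The cause of these shifts was not tested.

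Changed splicing events were 0, 1, 8 and 1 in undifferentiated, homozygous, heterozygous and Flp-In cells at a usage shift of at least 20 points (reported 1, 2, 14 and 2), 4 in homozygous cells at 5 points, and 1 in Flp-In cells at 50 reads. Counted as exon inclusion there were 0 in undifferentiated and 1 in homozygous cells. Leaving out a library gave 0 to 1 in undifferentiated cells. At scores at or above the list median, 4942 of 10197 clusters in motor genes were left.

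With the replicate number as a block, the counts by gene counts were 1, 2, 6, 0, 26 and 1, and by junction reads 4, 13, 16, 1 and 4, in the order above. The numbers were not taken as pairs: deviations of same-numbered libraries correlated at -0.148 to 0.106. Reads assigned to genes were fewest in Flp-In libraries, at 1.99 to 2.91 M. Recovery of simulated 2-fold changes, placed only in genes above a minimum of expected reads, was 38% in undifferentiated against 77% in differentiated heterozygous data.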

Other observations

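The 10 motor genes that no gene count test reached include genes with many junction reads or clusters. DYNC1I1 had at most 16 gene reads in any differentiated library, while its junctions held 329 to 1529 reads in the heterozygous table. KIF15, a spindle kinesin, had at most 18 gene reads in any library but 98 irCLIP clusters in the SH-SY5Y WT list.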
